A study of Bos taurus with 20 samples.

Results

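The genes described here are 10 genes of lipoprotein transport and cellular lipid efflux, namely the apolipoproteins APOA1, APOA4, APOB, APOD, APOE, and APOM, the apolipoprotein clusterin (CLU), the lipoprotein receptor SCARB1, and the cholesterol transporters ABCA1 and ABCG1. They were taken from the array by gene name, and all 10 names were found, with 30 spots and 20 different probe sequences among the 61325 spots, 50909 sequences, and 22550 genes or transcripts of the array. The list itself was selected on measured expression, since the levels of some of these genes in the same cell types, APOA1 among them, were already known when it was made. The differences between cell types and after in vitro maturation are therefore given as a description. Where the calls of a main fit are counted, they stand beside the share of all genes called and nothing is read from them.

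Gene expression was measured in bovine (Bos taurus) ovarian cells from antral follicles of 3 to 6 mm, taken from ovaries after slaughter, with 4 arrays for each of 5 groups. Theca cells (TH) were scraped from the follicle wall, granulosa cells (GC) line its inside, and cumulus cells (CC) surround the oocyte. These 3 somatic groups and the oocytes were immature, and the fifth group was CC detached after 4 h of in vitro maturation (IVM-CC). Replicates 1 and 2 of TH, GC, CC, and oocytes lay on slide 1 and replicates 3 and 4 on slide 2, whereas all 4 IVM-CC arrays lay alone on slide 3, so that IVM and slide cannot be told apart. A level is log2 of the background-subtracted intensity minus the 75th percentile of its array, so that 0 is the 75th percentile, and a gene's level is the median of its spots. Levels of different genes come from different probes and were not compared with each other. The RNA was that of many cells together, so fewer expressing cells and less RNA per cell cannot be told apart.

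Between 49.3% and 68.8% of probes were well above background on the oocyte arrays, between 54.2% and 58.3% on the IVM-CC arrays, and no spot was saturated. The labels were set against marker genes. The 5 theca markers were above background on at least 3 of the 4 TH arrays, and 5 of 5 granulosa and cumulus markers on those of GC and CC. Detection alone did not separate these labels. On at least 3 arrays, 4 of 5 granulosa and cumulus markers were above background in TH, and 4 of 5 theca markers in GC and in CC. The granulosa and cumulus markers had a mean level of −1.58 to −0.57 on the TH arrays, against 1.36 to 2.89 in GC and 2.47 to 3.16 in CC. The part of granulosa cells in the TH values was not tested. The 6 oocyte markers had a mean level of 5.14 to 5.53 on the oocyte arrays, against −3.61 to −1.38 on the CC arrays. HAS2, a hyaluronan synthase of cumulus expansion, was at 2.20 ± 0.59 (SD, n = 4) in IVM-CC and −5.56 ± 0.72 in CC. PTX3, the other cumulus expansion marker read, was not higher in IVM-CC, at −0.77 ± 0.98 against −0.66 ± 0.52 in CC. The label of IVM-CC did not have every granulosa marker with it, as FOXL2 was above background on 0 of the 4 IVM-CC arrays and on all 4 CC arrays.

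Apolipoproteins are the proteins that coat lipoprotein particles and let them bind receptors and enzymes. High-density lipoprotein, whose main protein is APOA1, is the principal lipoprotein class of follicular fluid. It takes up cholesterol that ABCA1 and ABCG1 pump out of cells and hands cholesterol esters to cells through SCARB1, and in the ovary this cholesterol feeds steroid synthesis.

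Each of the 10 genes had 2 probe sequences of 60 bases. For 5 of the 10 genes, 30 bases of each probe are shown as the array design gives them, 5′ to 3′. The capitals mark AATAAA, the letters of the usual polyadenylation signal.
APOA4 probe 1: ctctcacttctcAATAAAgctgctgagaaa
APOA4 probe 2: ctacctctcacttctcAATAAAgctgctga
APOB probe 1: gctccaggagagtttactatcaccttctga
APOB probe 2: acagcagctccttcagtatgtgcaggctct
APOE probe 1: gcaagccagaagatgaaggttctgtgggtt
APOE probe 2: gggccctagcttAATAAAgatttctcaagc
CLU probe 1: agtaagtacgtgAATAAAgaaattaaaaat
CLU probe 2: ctgatcacgggaagaacttgctcgcatgcc
ABCG1 probe 1: gacgtggagaacgccaagctctacttggac
ABCG1 probe 2: ctttgacacgatccccacctacttgcaggg

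The letters AATAAA stood in 6 of the 20 probe sequences (1 of APOA1, both of APOA4, and 1 each of APOE, APOM, and CLU), and in 7.97% of all probe sequences of the array. The reverse complement, TTTATT, stood in 0 of the 20 and in 3.15% of all. A match of these letters is a description of the probe and does not place it in a transcript. The 2 probes of APOA4 shared 54 of their 60 bases, those of APOM shared 18, and those of the other genes shared no run, so APOA4 was in effect read at a single place. Where 1 sequence was printed as 2 spots, the spots differed by a median of 0.05 log2 units when both were well above background (140 pairs) and by 0.31 otherwise (60 pairs).

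The array design names 1 transcript for each gene, on the UMD 3.1 assembly, and a pair of transcripts for SCARB1 that carry the same 2 probe sequences. APOA1 (chr15:27932200-27934085) and APOA4 (chr15:27906599-27909370) lie 22829 bases apart in the apolipoprotein cluster of chromosome 15. The others were APOB (chr11:77953380-78040118), APOD (chr1:72670963-72684269), APOE (chr18:53040105-53042792), APOM (chr23:27459277-27461382), CLU (chr8:11043941-11061301), SCARB1 (chr17:53180927-53273723), ABCA1 (chr8:96274035-96390357), and ABCG1 (chr1:143990494-144053318). These are spans of the transcripts, and the exon or untranslated region that a probe covers was not determined here.

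Across the follicle, APOA1, APOE, APOM, CLU, and SCARB1 had lower levels on all oocyte arrays than on all arrays of the 3 somatic cell types. Their differences from the somatic mean were −3.37 (APOM) to −9.02 (APOA1) log2 units. By limma, 38.3% of all genes were called lower in the oocyte, and the share of all genes without overlap was not computed. APOD was lower in the oocyte than in TH and GC but near background in both the oocyte and CC. APOA4 and APOB had higher levels in the oocyte, ABCA1 had an intermediate one, and ABCG1, whose mean level was lowest in the oocyte, differed there by −0.54 through the probe that stayed at background. Within the somatic cells APOA1, APOD, SCARB1, and ABCA1 were highest in TH, APOM in GC, and CLU in CC. After 4 h of IVM, APOA4, SCARB1, and APOA1 were higher than in CC.

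**Figure D1:**
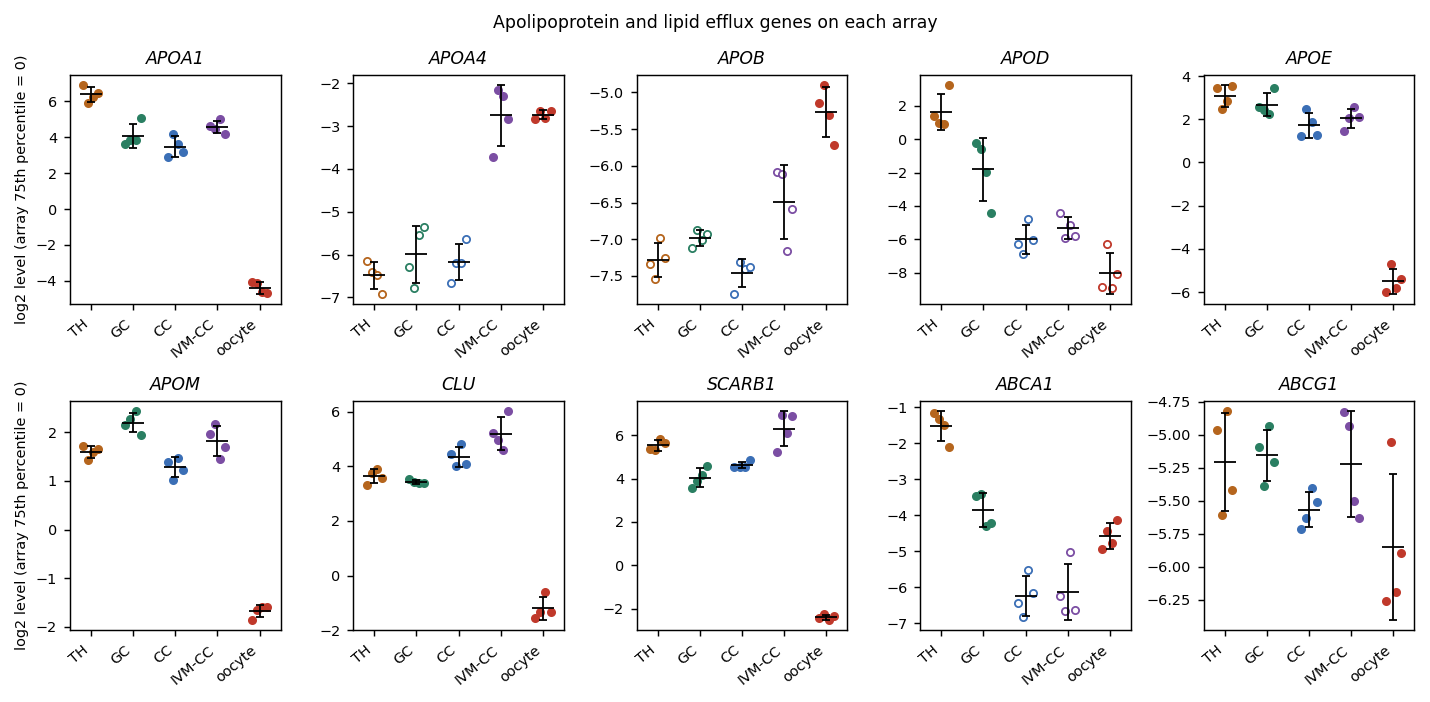
Level of each gene on every array (points), on the log2 scale relative to the 75th percentile of the array, with the mean and SD of each group of 4 arrays (bars). Hollow points mark groups with at most 2 of the 4 arrays well above background. The oocyte lies below all somatic points for APOA1, APOE, APOM, CLU, and SCARB1, and above those of TH, GC, and CC for APOA4 and APOB.

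An F-test by limma over the 4 immature cell types called 9 of the 10 genes, all but ABCG1, where 71.3% of all genes were called. In the oocyte, 8 members were called lower than the somatic mean (38.3% of all genes) and 2 higher (32.9%), with a median difference of −4.19 against −0.52 over all genes. ABCA1 lost this call without oocyte replicate 1 (−0.58) or 3 (−0.64), and ABCG1 without oocyte replicate 1 (−0.41), 3 (−0.43), or 4 (−0.53). Both also lost it with quantile normalization (−0.51 for ABCA1 and −0.11 for ABCG1) and with the array median as the centre (−0.53 and −0.37), each of which left 6 members lower, and ABCG1 lost it by its brightest probe (−0.04). 

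APOA1, the main protein of high-density lipoprotein, was highest in TH. Its level was 6.90, 5.88, 6.25, and 6.46 on the 4 TH arrays and 3.59, 3.84, 3.82, and 5.05 on the GC arrays. It was 2.88, 4.19, 3.62, and 3.19 in CC, and −4.08, −4.11, −4.63, and −4.69 in the oocyte. Every TH array lay above every GC and CC array, GC and CC overlapped, and the oocyte lay far below. TH exceeded GC by 2.29 (standard error 0.34), a 4.90-fold difference, and the difference was 2.67 within slide 1 and 1.92 within slide 2. The difference of CC from GC was −0.61, and that of the oocyte from CC was −7.85 (standard error 0.34 each). Both probes gave this order, with TH above GC by 2.78 for probe 1 and 1.83 for probe 2. The 2 spots of probe 1 were not both above background on any oocyte array, and TH was at least 1140-fold higher by it. Probe 2 was above background on all 4 oocyte arrays at −1.55 ± 0.50, and TH was 1000-fold higher by it, less than this bound. The difference of the oocyte from the somatic mean was −9.02, but −7.50 after normexp correction and −7.35 in the deposited log2 table.

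APOE, an apolipoprotein that macrophages and steroidogenic cells also make, had a level of 3.08 ± 0.50 on the TH arrays, 2.68 ± 0.53 on the GC arrays, and 1.72 ± 0.58 on the CC arrays (SD, n = 4). The 4 oocyte arrays were at −6.02, −4.72, −5.83, and −5.41. TH overlapped with GC, and it met CC where the lowest TH array and the highest CC array were both at 2.48. TH exceeded CC by 1.36 (standard error 0.37). The probes differed here. By probe 2 CC lay below TH and GC without overlap, with TH above CC by 0.95 and a difference of CC from GC of −0.75 (standard error 0.26 each), whereas by probe 1 the 3 somatic cell types overlapped. The difference of the oocyte from CC was −7.21 (standard error 0.37). By probe 2 the oocyte was above background on all 4 arrays at −2.89 ± 0.23, and by probe 1 on 0 of 4.

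APOM, an apolipoprotein of the lipocalin family that carries sphingosine 1-phosphate, was highest in GC. Its level was 2.16, 2.26, 2.43, and 1.95 on the GC arrays, 1.71, 1.42, 1.60, and 1.66 on the TH arrays, and 1.39, 1.02, 1.48, and 1.23 on the CC arrays. All GC values lay above all TH and CC values, and TH overlapped with CC. TH was lower than GC by 0.60 and CC was lower than GC by 0.92 (standard error 0.15 each). The oocyte was at −1.68 ± 0.13, 10.3-fold below the somatic mean, and its 2 probes gave 10.6-fold and 10.2-fold.

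APOD, a lipocalin that binds small hydrophobic molecules, differed most among the somatic cells. Its level was 1.42, 0.99, 0.93, and 3.26 in TH, but −0.23, −0.59, −1.94, and −4.43 in GC, where the 4 arrays spread over more than 4 log2 units. It was −6.31, −6.87, −4.80, and −6.03 in CC, with 1 of 4 arrays above background, and above background on 0 of 4 oocyte arrays. The groups TH, GC, and CC did not overlap, and TH was at least 126-fold higher than CC by probe 1 and at least 115-fold by probe 2. Between TH and GC the difference was 3.45 (standard error 0.86), made up of 1.62 within slide 1 and 5.28 within slide 2, so its size depended on the pair of arrays. After normexp background correction TH exceeded CC by 4.76 log2 units, less than these bounds. Among the GC arrays, replicate 4, the lowest in APOD, had the lowest levels of the theca markers COL1A1, ACTA2, and CYP17A1, but replicate 1, the highest in APOD, had the lowest of INSL3 and COL1A2. The 5 theca markers together had a mean level of 0.42 to 2.44 on the GC arrays and 5.56 to 5.90 on the TH arrays, and CYP17A1, the defining theca enzyme, was above background on 1 of 4 GC arrays. The part of theca cells in the GC values was not tested. The oocyte and CC were both near background for APOD, so no fold was given between them.

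CLU, an extracellular chaperone that also travels on high-density lipoprotein, was highest in CC among the immature cells. Its level was 4.43, 4.01, 4.83, and 4.08 in CC, 3.53, 3.41, 3.41, and 3.38 in GC, and 3.32, 3.76, 3.91, and 3.57 in TH. All CC arrays lay above all GC and TH arrays, by 0.90 (standard error 0.23) over GC and 0.70 over TH, whereas GC and TH overlapped. The probes agreed on CC over GC (0.92 and 0.89), but only probe 2 separated CC from TH. The oocyte was at −1.20 ± 0.42, and its 2 probes differed in how far. By probe 2, above background on all 4 oocyte arrays at 3.68 ± 0.06, its difference from the somatic mean was −3.43 log2 units. By probe 1, above background on 1 of 4 oocyte arrays, CC was at least 81.1-fold higher than the oocyte, against 16.8-fold by probe 2.

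**Figure D2:**
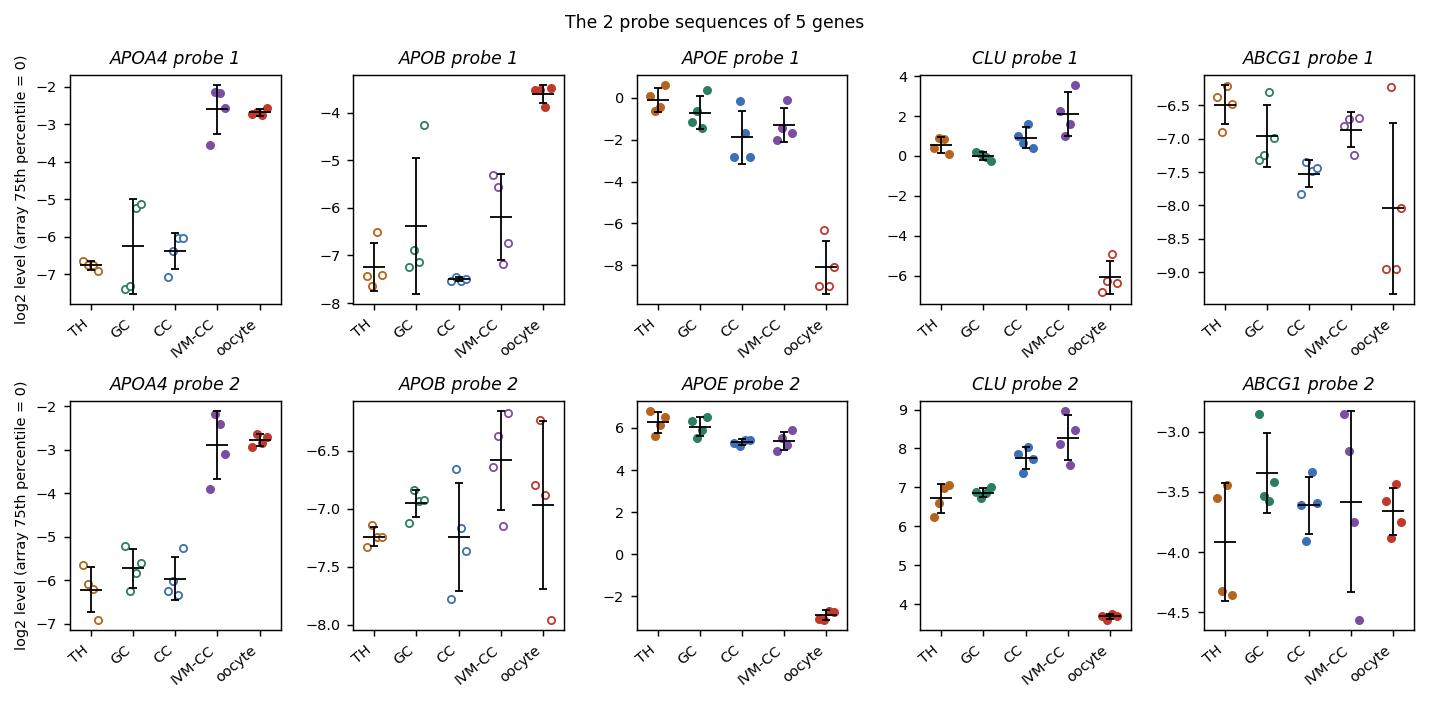
Levels on every array for each of the 2 probe sequences of APOA4, APOB, APOE, CLU, and ABCG1, with mean and SD of 4 arrays on the log2 scale of the array's 75th percentile, and hollow points for groups with at most 2 arrays above background. APOB probe 1 stands at −3.60 in the oocyte and probe 2 is not above background anywhere, and CLU probe 1 falls to background in the oocyte while probe 2 stays at 3.68.

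APOA4, an intestinal and hepatic apolipoprotein of chylomicrons, had the opposite pattern. Neither probe rose well above background in any of the 3 immature somatic groups. In the oocyte its level was −2.84, −2.66, −2.80, and −2.64, above background on all 4 arrays. The oocyte was at least 6.60-fold higher than CC by probe 1 and at least 6.14-fold by probe 2, and at least 4.76-fold higher than GC by the lower of the probes. The size depended on the background correction, as the difference of the oocyte from the somatic mean was 3.48 but 0.70 after normexp correction and 1.81 in the deposited log2 table.

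APOB, the structural protein of low-density lipoprotein, was also seen in the oocyte, but by a single probe. Probe 1 was at −3.52, −3.52, −3.88, and −3.49 on the oocyte arrays, above background on all 4. On the CC arrays it was at −7.54, −7.45, −7.53, and −7.49, none of them above background, so the oocyte was at least 3.51-fold higher. In GC replicate 4 alone, the mean of its 2 spots reached −4.26, and 1 of the spots was above background. Probe 2 was above background on no array of any group and was at −6.97 ± 0.72 in the oocyte and −7.24 ± 0.47 in CC. The level of the gene, the median over both probes, was −5.27 ± 0.34 in the oocyte. Its difference from the somatic mean was 1.97, but −0.61 after normexp correction, which turned the direction, and 0.35 in the deposited log2 table.

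SCARB1, the scavenger receptor that takes cholesterol esters from high-density lipoprotein, was at 5.36, 5.30, 5.83, and 5.63 in TH. It was at 3.56, 3.90, 4.15, and 4.57 in GC and at 4.55, 4.54, 4.55, and 4.85 in CC. TH lay above every GC and CC array, by 1.48 over GC and 0.91 over CC (standard error 0.20 each). The highest GC array reached into the CC range, and CC and GC differed by 0.57 (standard error 0.20). The oocyte was at −2.39 ± 0.12, a 129-fold lower level than in CC, and both probes were above background there and gave 153-fold and 110-fold.

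ABCA1, which loads cholesterol and phospholipid onto APOA1 outside the cell, was highest in TH and, by the 75th percentile scaling, lowest in CC. It was −1.17, −1.32, −1.49, and −2.11 in TH and −3.47, −3.42, −4.30, and −4.22 in GC. It was −4.95, −4.44, −4.78, and −4.14 in the oocyte and −6.45, −6.84, −5.53, and −6.17 in CC. TH exceeded GC by 2.33 (standard error 0.31), a 5.02-fold difference that was 2.20 within slide 1 and 2.46 within slide 2. GC overlapped with the oocyte. On no CC array were both spots of a probe above background, and TH was at least 16.6-fold and 13.1-fold higher than CC by the 2 probes. The oocyte was at least 2.08-fold and 1.58-fold higher than CC. After normexp correction TH exceeded GC by 1.19 and CC by 1.96, the latter less than the bounds of TH over CC. The difference of CC from GC was then −0.77, and that of the oocyte from the somatic mean was −1.38. Together these normexp values put the oocyte below CC, so the direction between the oocyte and CC depended on the background correction. By the 75th percentile scaling all oocyte arrays lay above CC and below TH for ABCA1, and 1 of the 4 lay within the range of GC.

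ABCG1, which passes cholesterol to lipoprotein that already carries lipid, showed little variation. By probe 2 its level was −3.92 ± 0.49 in TH, −3.35 ± 0.33 in GC, −3.61 ± 0.24 in CC, −3.58 ± 0.75 in IVM-CC, and −3.66 ± 0.20 in the oocyte, and the ranges of all pairs of groups overlapped. Probe 1 was above background on no array. As the gene's level averages a measured probe with one at background, its difference of −0.54 (standard error 0.20) between the oocyte and the somatic mean came from probe 1 (−1.05) and not from probe 2 (−0.04).

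**Figure D3:**
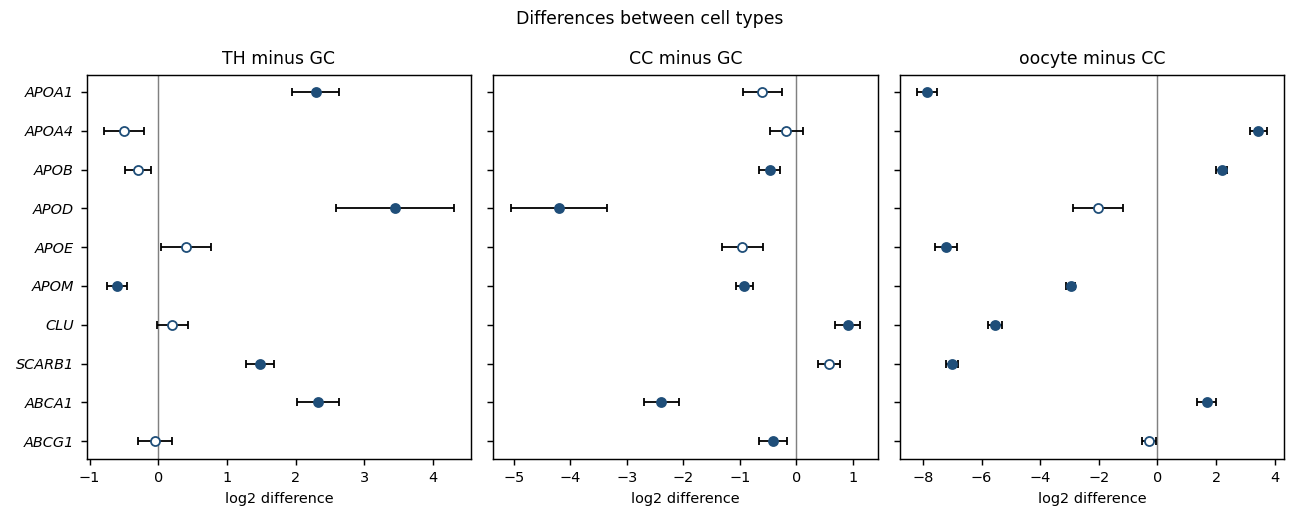
Differences in level between TH and GC, CC and GC, and the oocyte and CC (points, log2 units) with the standard error of the limma fit (bars). Filled points mark pairs of groups whose 4 and 4 arrays do not overlap. APOD has the largest differences among the somatic cells, and APOA1, APOE, and SCARB1 the largest between the oocyte and CC.

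Between pairs of cell types, the calls of limma were as follows. Between TH and GC, 5 members were called (26.3% of all genes), with ABCA1, APOA1, APOD, and SCARB1 higher in TH and APOM lower. Between CC and GC, 4 were called (9.88% of all genes), with CLU higher in CC and ABCA1, APOD, and APOM lower. Between TH and CC, 6 were called (31.8%), and between the oocyte and CC, 9 (63.7%). These counts are printed beside the share of all genes and nothing is read from them. CLU lost its call between CC and GC without CC replicate 1 (0.87), CC replicate 3 (0.74), or GC replicate 3 (0.90), and SCARB1 gained one without GC replicate 4 (0.75). CLU was also not called between TH and CC without CC replicate 1 (−0.67), CC replicate 3 (−0.53), TH replicate 1 (−0.59), or TH replicate 4 (−0.68).

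Markers of blood cells and macrophages also differed between the groups. Of 7 such markers, 6 were above background on at least 3 TH arrays, with a mean level of −2.39 to −1.40, against −4.53 to −3.63 on the GC arrays and −5.24 to −4.18 on the CC arrays. PTPRC, the defining leukocyte gene, was above background on all 4 TH arrays and on 0 arrays of the other groups. Not every marker of the list was highest in TH. CSF1R was at 3.70 in the oocyte against 1.60 in TH, and CD68 at −0.74 in IVM-CC against −2.16 in TH. HBB was at −5.07 in TH and −5.27 in GC. Of 3 endothelial markers, PECAM1 and VWF were above background on all 4 TH arrays and CDH5 on 1. PECAM1 had a mean level of 0.25 in TH, −5.37 in GC, and −6.82 in CC, and VWF of −0.02, −5.24, and −6.42. VWF was also above background on all 4 oocyte arrays, at −0.59 ± 1.08. The mean over the 3 lay between −2.79 and −1.44 on the TH arrays, between −6.47 and −5.27 on the GC arrays, and between −7.28 and −6.65 on the CC arrays. The part of these cells in the TH levels of APOA1, APOD, APOE, SCARB1, and ABCA1 was not tested.

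CC after 4 h of IVM were then compared with immature CC in a fit of these 8 arrays. As the genes were listed with earlier results on these arrays known, the adjusted p values of members given here are a description too. By limma with Benjamini–Hochberg adjustment over all genes, 4 of the 10 members were called (45.8% of all genes), each of them higher (30.3% of all genes). The median difference over the members was 0.77, against 0.37 over all genes. This shift of all genes was 0.01 after quantile normalization, under which the share of all calls that were higher was 43.2% and not 66.1%. It was 0.01 as well when genes not above background were left out.

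APOA4 had the largest difference after IVM. Its level was −3.73, −2.16, −2.29, and −2.83 on the IVM-CC arrays and −6.66, −6.20, −6.19, and −5.64 on the CC arrays. The groups did not overlap, and both probes were above background on all 4 IVM-CC arrays and on no CC array. APOA4 rose by 3.42 (standard error 0.36, limma adjusted p = 0.000106), and it was at least 6.97-fold higher by probe 1 and at least 5.67-fold by probe 2. The call held under all alternatives tried, with adjusted p between 2.43e-07 and 0.0025, but the size did not, as the rise was 1.40 after normexp correction and 1.42 in the deposited log2 table, below these bounds. The level of −2.75 ± 0.71 reached in IVM-CC overlapped with that of the oocyte, −2.73 ± 0.10. The 6 oocyte markers were lower on the IVM-CC arrays, with a mean of −5.56 to −3.57, than on the CC arrays, with −3.61 to −1.38. Of 5 liver-type secreted genes, ALB was above background on 1 IVM-CC array and FGB on none, while AHSG, the fetuin A gene, was at 1.40 ± 1.27 in IVM-CC and −2.33 ± 0.07 in CC. TF was above background on 4 IVM-CC and 3 CC arrays, at −4.47 ± 1.25 and −5.84 ± 0.62. TTR was above background on 3 IVM-CC and 4 CC arrays, at −4.27 ± 1.58 and −5.25 ± 0.83.

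SCARB1 was at 5.23, 6.95, 6.10, and 6.90 on the IVM-CC arrays, and the lowest of these lay above the highest CC array (4.85). It rose by 1.67 (standard error 0.36, adjusted p = 0.00596), a 3.19-fold difference, and the 2 probes gave 3.08-fold and 3.35-fold. With quantile normalization the rise was 1.20 (adjusted p = 0.045), and over all alternatives the adjusted p lay between 0.000159 (slide as a random block) and 0.045.

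APOA1 was at 4.60, 4.46, 5.01, and 4.17 in IVM-CC, and only the last of these fell within the CC range, whose highest value was 4.19. It rose by 1.09 (standard error 0.31, adjusted p = 0.0203). Probe 2 gave 0.94 with no overlap (adjusted p = 0.0276) and probe 1 gave 1.25 with overlap (adjusted p = 0.142). The call was lost with quantile normalization (0.72, adjusted p = 0.158), in the deposited log2 table (0.64, adjusted p = 0.0737), and without CC replicate 1 (0.89, adjusted p = 0.0565). Over all alternatives the adjusted p lay between 0.000853 (slide as a random block) and 0.158. All IVM-CC arrays lay below the lowest TH array (5.88).

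APOB was also called, by 0.97 (standard error 0.27, adjusted p = 0.0183). However, 0 of the 4 CC arrays and 0 of the 4 IVM-CC arrays had either of its probes well above background, so no change is read from it. The lowest signal well above background averaged −4.75 on the IVM-CC arrays and −5.41 on the CC arrays, so that values near background lay higher on the IVM-CC arrays. APOB was not called with quantile normalization (0.42, adjusted p = 0.21) or without CC replicate 1 (0.87, adjusted p = 0.0538), and its adjusted p lay between 0.000467 and 0.21 over the alternatives.

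The other 6 members did not pass the threshold. CLU was at 5.20, 4.97, 4.59, and 6.01 in IVM-CC and differed from CC by 0.86 (standard error 0.32, adjusted p = 0.052), and APOM by 0.54 (standard error 0.22, adjusted p = 0.0631). Both were called with slide as a random block (adjusted p = 0.00391 and 0.00555), in 1 fit of all 20 arrays (adjusted p = 0.0212 and 0.0245), and without IVM-CC replicate 3 (adjusted p = 0.0254 and 0.0274). The slide block cannot separate slide from IVM, as the IVM-CC arrays lay alone on their slide, so nothing is read from its lower adjusted p. APOD differed by 0.69 (adjusted p = 0.243), ABCG1 by 0.34 (0.239), APOE by 0.32 (0.444), and ABCA1 by 0.11 (0.84). After normexp background correction, all of these but APOE were called, among them APOD (0.65, adjusted p = 0.00136), ABCG1 (0.62, adjusted p = 0.00105), and ABCA1 (0.60, adjusted p = 0.00075), with a shift of all genes of 0.55. ABCG1 was also called in the deposited log2 table (0.33, adjusted p = 0.0306). For ABCA1 and APOD, CC and IVM-CC were both mostly not above background. The values of these comparisons carry the slide as well as the maturation, and the genes were listed with earlier results on these arrays known.

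**Figure D4:**
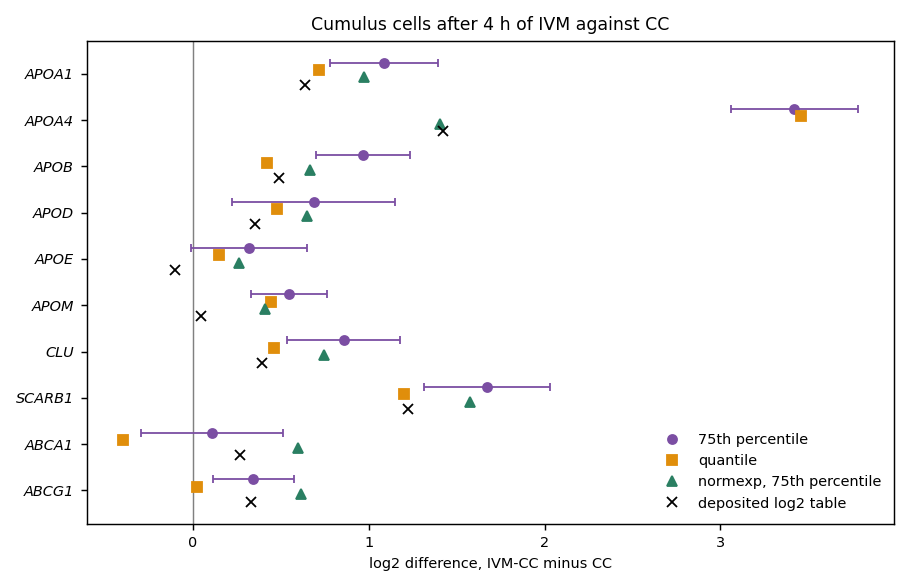
Difference in level between IVM-CC and CC (log2 units) for each gene under the 75th percentile scaling, with its standard error (bars), and under quantile normalization, normexp background correction, and the deposited log2 table. APOA4 and SCARB1 stay above 1 under each, while ABCA1 and APOE lie on both sides of 0.

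The genes most like each member over the 20 arrays were found by Pearson's r among 15160 genes above background, as a description, since the points share arrays and the contrast of the oocyte with the somatic cells dominates them. They were TCF12 and CSRP1 for APOA1 (both r = 0.98), GOT1 (0.98) and SGMS2 (0.97) for APOA4, DNAH9 and CETN1 (both 0.97) for APOB, and CALD1 and TCF23 (both 0.96) for APOD. They were IGFBP7 and C1QTNF1 for APOE (both 0.99), NNAT and BMI1 for APOM (both 0.99), DSEL and P4HB for CLU (both 0.99), and PMEPA1 and HDAC5 for SCARB1 (both 0.99). ABCA1 and ABCG1 had looser matches, ROBO4 and PHACTR2 (both 0.94) for ABCA1 and RELN (0.88) and KLF1 (0.87) for ABCG1. No p is attached, and nothing on shared function is drawn from them.

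For the wider lipoprotein pathway, 63 other genes were listed by role, of which 58 were on the array and 55 were above background in some group. Against the somatic mean, 21 of the 58 were higher in the oocyte (32.9% of all genes were) and 28 lower (38.3% of all genes), and 9 were not called. By role, 5 of 9 other apolipoproteins and 7 of 10 lipoprotein enzymes and transfer proteins were lower in the oocyte, whereas 2 in each of these roles were higher. Of 15 other transporters and cholesterol handling genes 7 were higher and 6 lower, and of 15 receptors 6 were higher and 8 lower. The receptor gene LRP2 (megalin) was at 1.74 ± 0.14 in the oocyte and above background on no somatic array, at least 127-fold higher. ABCG5 and ABCG8, which form the sterol exporter of bile, were at least 37.5-fold and 12.2-fold higher there, and AMN, the partner of cubilin, differed by 4.87. LPL, lipoprotein lipase, was at least 139-fold and NCEH1 at least 54.0-fold lower in the oocyte, and LCAT, which esterifies the cholesterol of high-density lipoprotein, was lower by 7.18 and PLA2G7 by 6.10. Over the alternatives the smallest log2 differences were 4.94 for LRP2, 3.40 for ABCG5, 1.57 for ABCG8, −5.66 for LPL, and −4.49 for NCEH1. Each is less than the bound given for that gene, so the bounds hold only for the main processing. The direction and the call of these genes held under every alternative.

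In IVM-CC against CC, 13 of the 58 were higher (30.3% of all genes were), 15 lower (15.5% of all genes), and 30 not called. Of 10 enzymes and transfer proteins 5 were higher, and of 9 regulators 5 were lower. The 13 include APOF, ABCG5, LRP2, and PON1, the last being among the 5 enzymes and transfer proteins. These were above background on 0 CC and 0 IVM-CC arrays, so no change is read from them. The largest rises among genes whose groups did not overlap were those of the receptors OLR1 (2.03) and LRP8 (1.72) and of SREBF2 (1.61), a transcription factor of cholesterol synthesis and uptake. LRP8 is a receptor of APOE. APOL3 (−2.96), ABCA3 (−1.87), and SORL1 (−1.69) fell most among those above background in both groups. Over the alternatives APOL3 ranged from −3.88 to −0.45, ABCA3 from −2.29 to −1.69, and SORL1 from −2.06 to −1.51, so their order depended on the processing. STAB1, above background on all 4 CC arrays and 0 of 4 IVM-CC arrays, was at least 1.23-fold lower. The limma adjusted p for the 7 genes with a rise or fall given here lay between 0.000175 and 0.011. STAB1 was not called after normexp correction or in the deposited table. The same slide applies to all of these values.

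**Figure D5:**
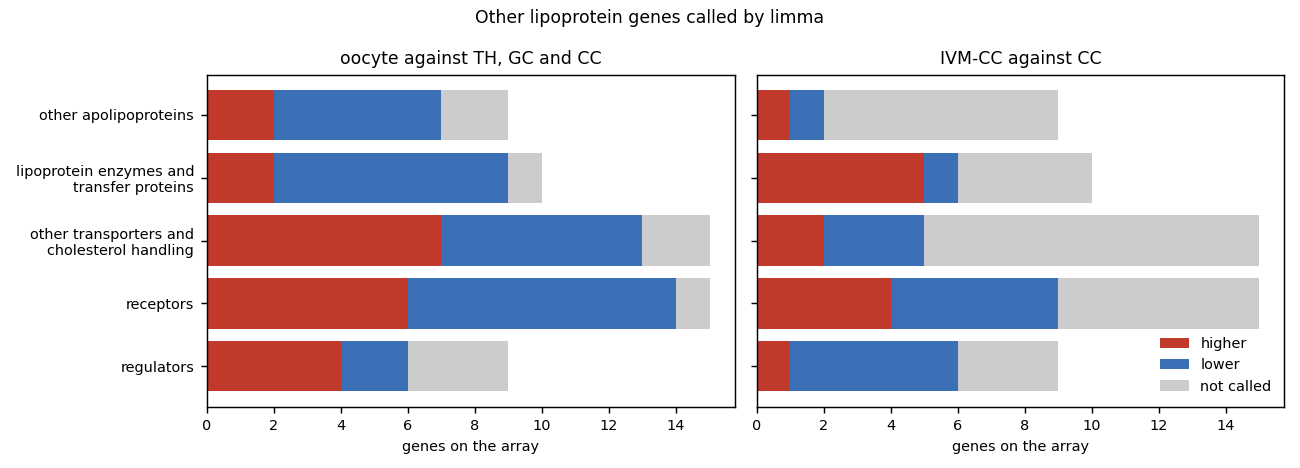
Number of other lipoprotein genes on the array, by role, called higher, lower, or not called by limma in the oocyte against TH, GC, and CC and in IVM-CC against CC. Over all 5 roles, 21 were higher and 28 lower in the oocyte, and 13 were higher and 15 lower in IVM-CC. The 13 include APOF, PON1, ABCG5, and LRP2, which were above background on no CC or IVM-CC array.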

How the data were processed

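Expression was measured on 20 one-colour arrays (Cy3, custom bovine Agilent design), 4 per group, described by the study as biological replicates. For each array the authors deposited the scanner output of Agilent Feature Extraction 10.7.3.1, in which the processed intensity is background-subtracted and not normalized between arrays. They also deposited a table of log2 values, which equal log2 of the median pixel signal minus the array median within 5e-09, so the background is left in it. Marks of 0 or 1 for signal above background and for outliers, and the slide, came from the same deposited files.

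Control spots and outlier spots were left out, log2 intensity was centred on the 75th percentile of each array, and the median over spots was taken per gene. A gene name was missing for 9779 of the 61325 probes, and 734 of these were named by accession through the RefSeq table (ARS-UCD2.0). R 4.3.3 was used with limma 3.58.1 (lmFit, eBayes) and the package data.table, version 1.17.8, to fit models over the 16 arrays of the cell types and over the 8 arrays of CC and IVM-CC, with Benjamini–Hochberg adjustment over 22550 genes and a threshold of 0.05. Tables and figures used Python 3.11.15, pandas 2.3.3, numpy 2.4.6, and matplotlib 3.10.9. Calls of a fit were tested on simulated data. A probe above background on fewer than 3 of 4 arrays of the dimmer group was given a bound. It set the brighter mean against, per array, the higher of the measured value and the lowest signal above background. A probe printed as 2 spots counted as above background when both spots were, and a gene when any spot was.

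All 10 members are named. Of the other lipoprotein genes and for each contrast, up to 4 rises and 4 falls were named, past the threshold, without overlap, and above background in the brighter group. A gene that this rule named is not reported here. For each member the 2 genes with the highest r were named. The members and these lists were chosen with earlier results of these data known. Some of the 63 listed genes were not found by name (APOC1, APOOL, APOR, CETP, and LIPG). Same-numbered arrays of different groups were checked for pairing, as the correlation of their deviations from the group means over genes. Between TH and GC all 4 pairs were over 0.1 (0.12 to 0.37), but for replicate 1 an array of another number reached 0.16. Same-numbered TH and GC arrays also share a slide, so the correlation cannot tell pairing from slide. The differences between TH and GC given here come from the fit without pairs. The fit with the replicate block, which takes the numbers as pairs, called 5 members, as the fit without it did. In no other pair of groups were all 4 over 0.1. The alternatives were quantile normalization, the array median, normexp (offset 50), the mean over spots, the brightest probe, the deposited log2 values, a filter on dim genes, 1 fit of 20 arrays, the replicate number or slide as a block, each slide alone, an analysis of variance, and each array left out. Fits of each probe and slide as a random block were added after seeing the data. The number of arrays limits the precision.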

Additional observations from a re-analysis of the deposited data

Results flagged for a closer look

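In each of the 10 genes and 5 groups, the highest and lowest array was set against the other 3 of its group, and 1 of the 50 groups stood out. SCARB1 on CC replicate 4 was at 4.85, whereas the other CC arrays lay between 4.54 and 4.55, and the gap made up 0.95 of the range of the group. Chance alone marks about 1 in 20 groups (0.05). Without this array SCARB1 rose by 1.75 in IVM-CC (limma adjusted p = 0.013).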

How the results depend on the processing

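Of 1347 recomputed differences of single members, 1273 kept their direction and their side of the threshold, 40 lost and 16 gained the threshold, 17 uncalled ones moved, and 1 was reversed. The oocyte against CC was not among these differences. The reversed one was APOB in the oocyte against the somatic mean, which was 1.97 but −0.61 after normexp correction, and with it 1 member was called higher in the oocyte. The cause was not tested. After IVM, quantile normalization called 2 members (APOA4 and SCARB1) beside 6377 of all 22550 genes, and normexp called 9 beside 17668. Leaving out 1 array gave 2 to 6, the lowest without CC replicate 1. Among the pairs of cell types, slide 1 alone called 3 members between TH and GC, 2 between GC and CC, and 3 between TH and CC, and slide 2 alone called 0 between GC and CC (5 at an unadjusted p under 0.05, limma), with 2 arrays a group. The share of all genes is not given for single slides, the replicate block, or 1 array left out. Nothing is read from those counts.

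Leaving out 1 array gave 6 to 8 members lower in the oocyte, where ABCA1 and ABCG1 lost the call without oocyte replicate 1 or 3. The filter on dim genes left APOB out of the IVM fit. With the replicate block the counts of calls were 9 over the cell types, 8 between the oocyte and CC in place of 9, and 4 after IVM, and the block moved no count by over 1.5 times. Same-numbered arrays correlated between −0.18 and 0.37. The fit with slide as a random block used a correlation of −0.26 and cannot separate slide from IVM. Normexp shifted all genes by 0.55 in IVM-CC against CC (83.3% of calls higher) and by −1.30 in the oocyte (26.4% higher, against 46.2%), the deposited table gave 37.8% there, and for CC against GC it gave 73.2% higher against 53.4%. Genes near background, such as APOB, APOD and ABCA1 in CC and APOA4 outside the oocyte and IVM-CC, are limited by signal over background.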
